A study of Lachancea waltii with 4 samples.

Results

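Among the 5192 genes of the yeast Lachancea waltii (Kluyveromyces waltii in the older literature) that had a usable measurement, 128 gave very little messenger RNA in rich medium, yet an RNA signal that the scanner software still called well above its local background, and a normal signal from genomic DNA. These 128 low but detected genes were selected on measured values. A gene's level is the log2 ratio of its RNA signal to its genomic DNA signal, after subtraction of the local background of each spot, as the median over its probes, relative to the median gene of the array and averaged over 4 arrays. A gene was kept if its level was -2.8 or less (6.96-fold or more below the median gene), if the RNA signal of every probe was called well above background on all 4 arrays, and if the genomic DNA signal of every probe lay within 1 log2 unit of the array's median probe.

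Cells of strain NCYC 2644 were harvested at mid-log phase from a rich medium. Their total RNA, converted to cDNA and labelled with the green dye Cy3, was hybridised together with genomic DNA of the same strain, sheared and labelled with the red dye Cy5, on arrays of 55-base probes. The 4 arrays form 1 group with no other condition, and the labels number the RNA samples 1 to 4 without saying whether they came from separate cultures (the study's methods speak of biological replicates), so that spread and p-values describe these arrays only. The study used these absolute RNA levels to relate expression to chromatin organisation in several yeasts, and all 4 arrays lay on 1 slide, so that slide could not be set apart as a batch.

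In a growing yeast culture, most of the messenger RNA comes from genes for ribosomes, translation and sugar metabolism, and a part of the genome stays nearly silent. Genes with little RNA in rich medium typically include those for mating and meiosis, those repressed by glucose, and genes near chromosome ends, where yeast chromatin is often silenced. Because a single-copy gene brings a fixed amount of genomic DNA to each of its probes, an ordinary DNA signal helps to tell a gene with little RNA from a probe that hybridises poorly. The DNA signal does not show how well a probe matches the transcript. The files give each gene only as an identifier, such as Kwal_23.4650, with no name or function, so no role can be given for any of the 128.

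In all, 301 genes had a level of -2.8 or less. Of these, 128 met both other conditions, 119 had at least 1 probe whose RNA was not well above background on every array, and 54 were detected but had a probe outside the genomic DNA window, 53 of them above it and 1 below it. The 128 genes were measured by 253 probes. There were 2 usable probes for 125 of them and 1 for the other 3. Kwal_26.6680 (-2.81), Kwal_55.21982 (-2.81) and Kwal_27.10104 (-2.801) lay just inside the limit, while Kwal_14.1249 (-2.79), Kwal_47.16930 (-2.78) and Kwal_47.18216 (-2.77) met the other conditions and lay just outside. These 6 genes lay closer together than the spread of any of them between arrays, so the limit does not mark a gap.

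**Figure D1:**
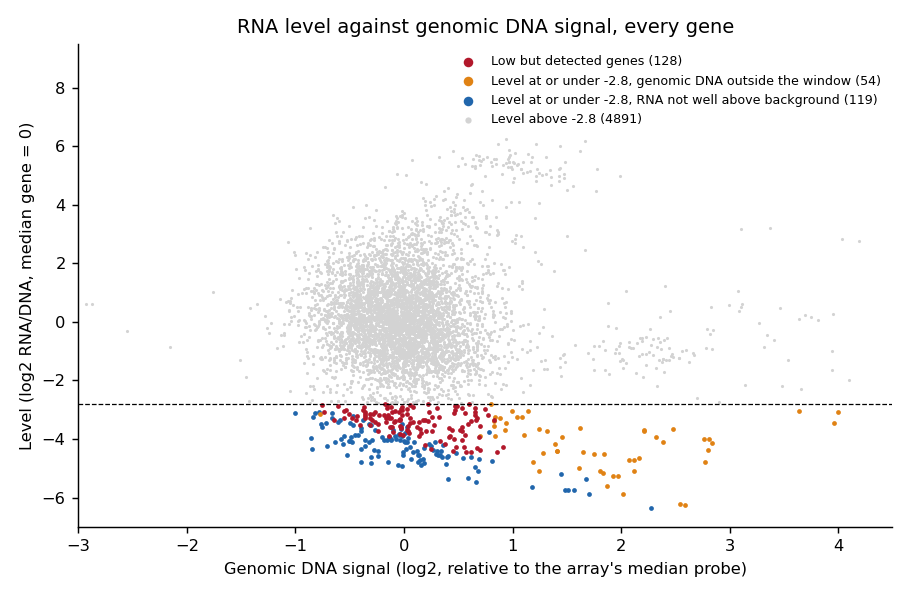
Each point is a gene, with its genomic DNA signal (log2, relative to the array's median probe) on the x axis and its level (log2 RNA over genomic DNA, median gene at 0) on the y axis, both as means of 4 arrays; the dashed line is the level limit of -2.8. The 128 low but detected genes (red) sit beneath the main cloud of genes at the same DNA signals, the 54 with unusual DNA signal (orange) lie mostly to the right, and the 119 not well above background (blue) lie mostly deeper; 9 genes with a DNA signal under -3 are not drawn.

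Levels of the low but detected genes ran down to -4.46, with a median of -3.34, which is 10.13-fold below the median gene. The fold below the median gene ranged between 6.97 and 22.02. Of the 128, 11 lay at or under -4.2, 12 between -4.2 and -3.8, 33 between -3.8 and -3.4, 51 between -3.4 and -3, and 21 above -3. The numbers thus grew towards the limit, except in its narrower last band. Their median was -3.42, -3.30, -3.36 and -3.36 on arrays 1 to 4 (SD 0.05, n = 4). The depth below the median gene depended on the processing. With another background, the same 128 genes had a median of -3.71 (negative controls subtracted) or -3.17 (normexp, a model of the background). The scanner software's own ratios, which are dye-normalised as well as background-corrected, gave -1.69. As RNA amount per culture was measured, a gene off in most cells cannot be told apart from one weakly on in all of them.

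The lowest of them lay 20.4-fold or more under the median gene on average. Kwal_47.19139 had levels of -4.48, -4.18, -4.47 and -4.71 on arrays 1 to 4 (mean -4.46 ± 0.21, SD, n = 4). Kwal_23.6592 had -4.54, -4.37, -4.49 and -4.43 (mean -4.46 ± 0.07). Kwal_23.4650 had -4.44, -4.41, -4.43 and -4.44, the smallest spread of any of the 128 (mean -4.43 ± 0.01). The order of these 3 genes differed between arrays, and their means differ by less than the spread of the first. Kwal_26.8240 (-4.41 ± 0.14), Kwal_47.16962 (-4.37 ± 0.10) and Kwal_14.1746 (-4.35 ± 0.11) followed, and these neighbours too differ by less than their spread.

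In scanner units, the RNA signal of the probes of the low but detected genes had a median of 110, 170, 125 and 146.5 on arrays 1 to 4, against 1191, 1716, 1301.5 and 1583 for the probes of all genes. The lowest was 53, 74, 75 and 67, and the highest 651.5, 1026.5, 486.5 and 627. Their genomic DNA signal had a median of 8570.5, 10087.5, 9598.5 and 9806.5, against 7939, 9661, 8927 and 9238 for all genes. A DNA signal close to that of the array as a whole and a low RNA signal are both fixed by how the genes were chosen. With RNA signal alone, not divided by DNA, the median level of the 128 was -3.39 and 109 of them were still at or under -2.8. The other 19 had a higher DNA signal, with a median of 0.60 against -0.02 for the 109, and those 19 met the limit only as a ratio.

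The label "detected" was set against the 77 negative control spots of the array, which match no gene. These spots had a median RNA signal of 27.5, 37, 34 and 34 units, so the median probe of the low but detected genes stood 4-, 4.59-, 3.68- and 4.31-fold above them. On every array, each of the 253 probes exceeded the 95th percentile of the negative controls, which was 36.2, 58.5, 46.3 and 47.6 units. The brightest negative control reached 102, 116, 147.5 and 212 units, however, and was exceeded by 148, 228, 93 and 48 of the 253 probes. Only 12 of the 128 genes had every probe above the brightest negative control on every array. RNA of the low but detected genes was therefore clear of the bulk of the controls, and for most genes not of the brightest of them. Detection on every array was a condition of choice, so standing clear of the bulk is no separate test of it. The 119 genes not well above background also stood above the median negative control, at a median of 2.49-fold against 4.23-fold for the 128.

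**Figure D2:**
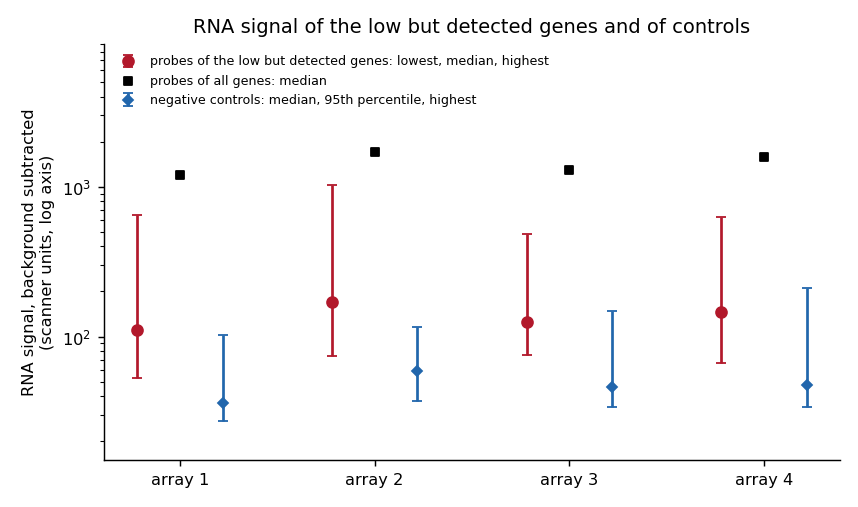
RNA signal after local background subtraction (scanner units, log axis) on each of the 4 arrays. Red points and bars give the median, lowest and highest of the 253 probes of the low but detected genes, black squares the median of all gene probes, and blue diamonds and bars the 95th percentile, median and highest of 77 negative controls; the lowest red values stay above the blue diamonds on every array, while the blue upper ends overlap the red range.

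Those 12 genes had levels between -3.36 and -2.81 and mean RNA signals between 210.6 and 342.7 units. The highest RNA signal among them was that of Kwal_27.12467, and the lowest level that of Kwal_23.6586. Their median DNA signal was 0.65, so that an RNA signal this bright gave a level under the limit mostly beside a DNA signal in the upper part of the window. At the other end, Kwal_14.1746 had the smallest RNA signal of the 128, with 71.8, 91.5, 88.2 and 91 units on arrays 1 to 4, 2.59-fold over the negative controls. Kwal_55.21982 had the largest, with 372, 623.8, 301.8 and 410.5 units, 12.8-fold over the negative controls, and is described below for its unequal probes.

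Levels of the low but detected genes varied between arrays more than those of other genes as a whole. Their spread was near that of the genes not well above background and smaller than that of the genes with unusual DNA signal. The SD of a gene over the 4 arrays had a median of 0.14 log2 units, against 0.10 for all other genes, 0.12 for the 233 genes of the next band up (levels between -2.8 and -1.8, other conditions alike), 0.15 for the 119 genes not well above background and 0.22 for the 54 with unusual DNA signal. Among genes of like RNA signal the low but detected genes mostly had the smaller spread. Their detection on all 4 arrays was a condition of choice, however, and the other genes include those with unusual DNA signal. At mean signals between 90 and 120 units the median SD was 0.12 for 33 low but detected genes and 0.15 for 39 other genes. It was 0.14 for 39 and 0.19 for 11 between 120 and 150 units, and 0.13 for 20 and 0.17 for 95 between 200 and 300. Between 60 and 90 units it was 0.11 for 1 and 0.14 for 58. Only between 150 and 200 units was it larger in the low but detected genes, at 0.15 for 32 and 0.14 for 35. In all, 110 of the 128 were under the limit on each of the 4 arrays, and 18 were above it on at least 1.

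A few genes varied far more. Of the 9 with an SD over 0.3, Kwal_55.19547 had levels of -4.15, -2.88, -3.81 and -3.15 on arrays 1 to 4 (SD 0.59, n = 4). Kwal_26.7480 had -3.54, -2.54, -3.52 and -2.71 (SD 0.53), and Kwal_27.9650, the first gene of its contig, had -4.47, -3.39, -4.39 and -3.84 (SD 0.51). In these 3 genes both values of arrays 2 and 4 were above both of arrays 1 and 3. Kwal_27.10664 went another way, with -2.91, -3.37, -2.04 and -3.07 (SD 0.57), array 3 standing highest. The smallest spreads after that of Kwal_23.4650 belonged to Kwal_27.12347 (-3.01 ± 0.04), Kwal_56.24518 (-3.88 ± 0.04) and Kwal_23.4356 (-3.43 ± 0.05).

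The arrays fell into the same pairs over all 128 genes. The levels of arrays 1 and 3 correlated with r = 0.903 and those of arrays 2 and 4 with r = 0.933, while the other 4 pairs gave 0.765 to 0.810 (across 128 genes measured on 1 slide, as a description). Over all genes the same pairs stood out, at 0.996 and 0.996 against 0.991 to 0.992. Of the low but detected genes, 32 (25%) were higher on arrays 2 and 4 than on both others and 28 (21.9%) lower, against 19.8% higher and 26.8% lower of all genes. Of the 9 most variable, 6 were higher and 2 lower on arrays 2 and 4. Array 2 held the highest level of a gene in 55 of the 128 cases, and array 4 the lowest in 53. These counts were not made over all genes, so they cannot be read as particular to the 128.

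**Figure D3:**
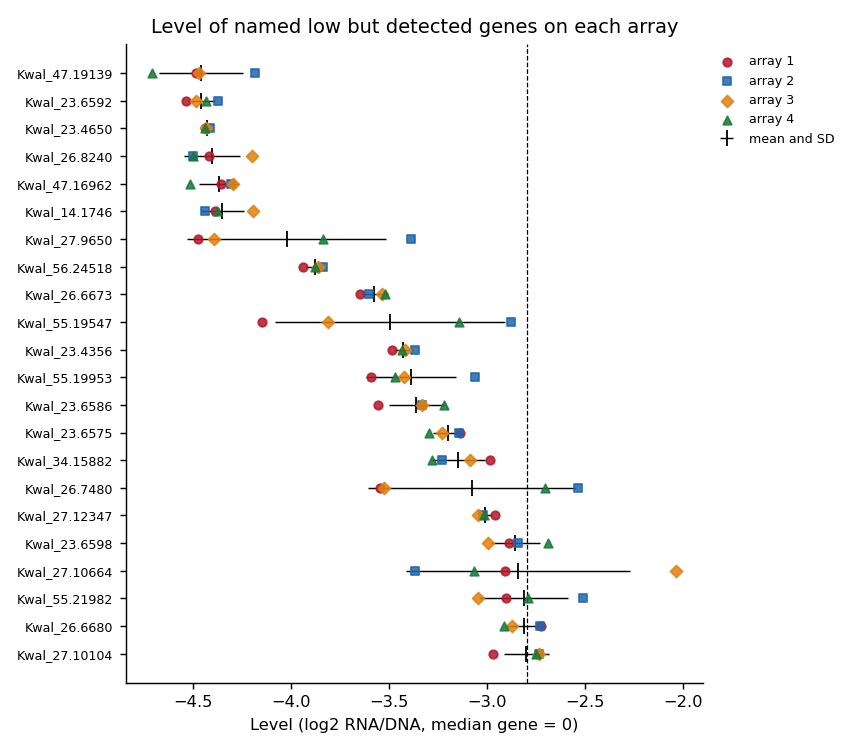
Level (log2 RNA over genomic DNA, median gene at 0) of the 22 named low but detected genes on each of the 4 arrays (coloured symbols), with the mean (tick) and SD (line) of the 4; the dashed line is the limit of -2.8. Most genes have 4 symbols close together, while Kwal_27.9650, Kwal_55.19547 and Kwal_26.7480 have arrays 2 and 4 to the right of arrays 1 and 3.

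The difference between the 2 probes of a gene was not used to choose it, and was tested against 2-fold over all 4939 genes with 2 usable probes (limma's treat on the 4 arrays, Benjamini-Hochberg over all genes). It was called for 2 of the 125 low but detected genes with 2 probes (1.60%), against 1.21% of all genes tested, a share near the background. In Kwal_55.19953 the first probe had a level of -4.58 and the second -2.20, a difference of -2.38 (SD 0.40 over 4 arrays, adjusted p = 3.12e-06 by limma). In Kwal_55.21982 they had -3.99 and -1.63, a difference of -2.36 (SD 0.36, adjusted p = 1.94e-06 by limma). With loess-normalised ratios and with the scanner's own ratios the call for Kwal_55.19953 was lost, with differences of -0.04 and -0.83 (adjusted p = 1 by limma in both), while Kwal_55.21982 kept it, with -1.37 and -1.30. As measured without these dye corrections, one probe of both genes lay above the limit of -2.8 and the other well under it, so that the level of either gene is a midpoint between unlike values. Next came Kwal_34.15882, with a difference of -1.19 (adjusted p = 0.587 by limma), and Kwal_27.10664, with -1.05 (adjusted p = 1 by limma), neither of which passed.

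For most of the low but detected genes the 2 probes gave the same picture. The median absolute difference was 0.21 log2 units, against 0.23 for all other genes, which were not chosen by conditions on each probe. Where the probes shared fewer than 5 of their 55 bases, it was 0.25 for 63 low but detected genes and 0.31 for 3207 others. Where they shared 5 to 49 bases it was 0.33 for 30 and 0.20 for 1001, and where they shared 50 or more, 0.09 for 32 and 0.08 for 606. Agreement of the last kind repeats nearly the same sequence and is no second measurement of the gene.

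Such near-duplicate probes were common among the low but detected genes. Both probes shared 50 or more bases in 32 of 125 (25.6%), against 606 of 4814 other genes (12.6%) and 13.6% of the next band up. The share was 17.2% for the genes not well above background and 43.4% for those with unusual DNA signal. Kwal_47.19139 and Kwal_23.6592, the lowest of the 128, both had probes that shared 54 bases, while Kwal_23.4650, Kwal_26.8240, Kwal_47.16962 and Kwal_14.1746 had probes sharing 2 or fewer and so rest on separate stretches of the gene.

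The probes of the low but detected genes, like those of the other low genes, held more T and less A on average than the probes of other genes. A made up 29.2% and T 28.6% of the bases of their 253 probes, against 31.8% and 26.2% in 9878 probes of other genes. T outnumbered A in 120 of 253 probes (47.4%), against 3007 of 9878 (30.4%). The sum of G and C was alike, with a median of 43.6% in both and a mean of 42.2% against 42.0%. Single probes varied, with an SD of 6.43 percentage points in T among the 253. No open reading frame in the 3 frames of the probe as listed was found for 9 of 253 probes (3.56%), against 7.43% of other probes. The share was 6.38% for the genes not well above background, 0.93% for those with unusual DNA signal and 5.73% for the next band up.

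The T content followed the level. It averaged 29.2% in the 64 lowest of the 128 by level and 28.0% in the 64 highest, 27.1% in genes between -2.8 and -1.8, 26.4% between -1.8 and -0.8, and 25.7% to 25.8% between -0.8 and 1.8. Above 1.8 it was a little higher again, at 26.2% and 26.5%. Among genes whose 2 probes shared under 5 bases, T averaged 27.8% and A 30.1% in the low but detected genes, against 26.1% and 32.1% in the others, so the shift was smaller there but in the same direction. It was larger, at 30.4% T and 26.8% A, in the 32 low but detected genes with near-duplicate probes. The 119 genes not well above background averaged 29.1% T and 29.6% A and the 54 with unusual DNA signal 28.5% T and 28.1% A, so the base content goes with the low level and is not particular to the 128.

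**Figure D4:**
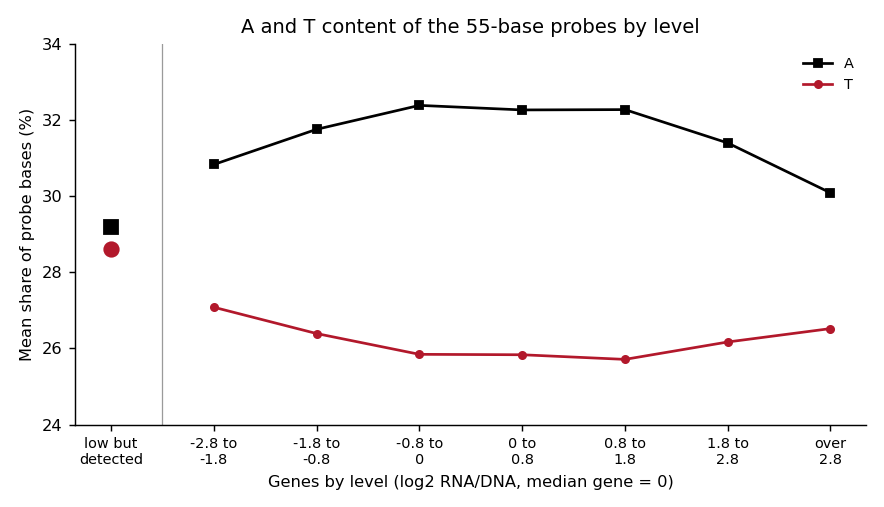
Mean share of A (black squares) and T (red circles) in the 55-base probes (%, axis starting at 24) of the low but detected genes, left of the grey line, and of all genes in bands of level (log2, median gene at 0), right of it. A and T nearly meet in the low but detected genes, at 29.2% and 28.6%, and stand farthest apart in genes of middle level.

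Position was read from the identifiers, taking the first number as the contig and the second as the order along it, which the files do not state. Whether a contig end is also a chromosome end was not known here. Of the 128 low but detected genes, 20 (15.6%) lay within 10 genes of an end of a contig with at least 50 genes, against 180 of 5064 other genes (3.55%). Of the genes next to an end or up to 4 genes from it, 12 of 100 (12.0%) were low but detected. The share was 8% at a distance of 5 to 9 genes, 4% at 10 to 19 and 2.06% at 20 to 49 as well as beyond 49. Of the other low genes, 19 of the 119 not well above background (16.0%) and 19 of the 54 with unusual DNA signal (35.2%) lay as near to an end, as did 8.15% of the next band up.

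**Figure D5:**
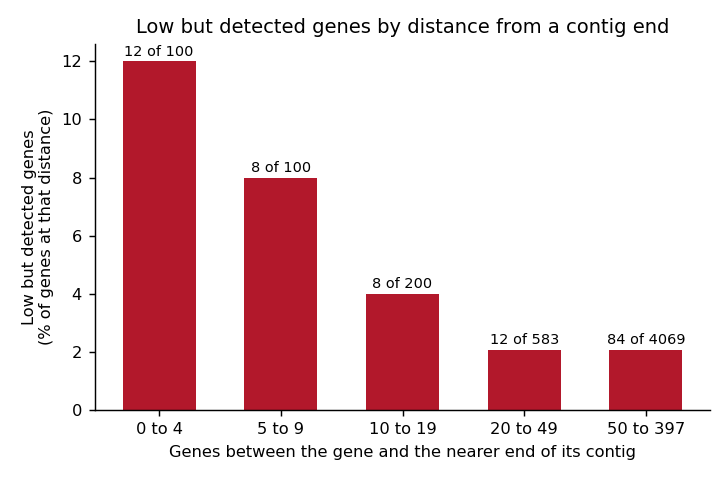
Share of genes (%) that were low but detected, by the number of genes between a gene and the nearer end of its contig, for contigs with at least 50 genes; the label over each bar gives the number of low but detected genes and of all genes. The share is 12.0% in the 5 genes nearest an end and 2.06% from 20 genes on.

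The ends were unlike each other. The high-numbered end of contig 23 held 5 of these genes among its last 10 and the low-numbered end of contig 26 held 4 among its first 10, while the low-numbered end of contig 27 held 3. Both ends of contigs 0, 34 and 47 held none, although 4 of the first 10 genes of contig 47 had a level under the limit. The longest run of low but detected genes, each next to another in the order, was Kwal_23.6575, Kwal_23.6586, Kwal_23.6592 and Kwal_23.6598 at the end of contig 23, with levels of -3.20 ± 0.08, -3.36 ± 0.14, -4.46 ± 0.07 and -2.86 ± 0.13 (SD, n = 4 each). The second of them differs from the third by more than the spread of either, so the run is not at 1 level. Shorter runs were Kwal_26.6673 and Kwal_26.6680 (-3.58 ± 0.06 and -2.81 ± 0.10), and Kwal_27.9666 and Kwal_27.9678 (-3.02 ± 0.12 and -3.33 ± 0.15), both near a contig end as well.

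These 3 runs hold 8 of the 128 genes (6.25%). Of other genes, 4.70% lay beside one of the 128, with 14.3% of the 119 not well above background and 14.8% of the 54 with unusual DNA signal. Most low but detected genes thus stood apart from others of the 128. The 241 genes next to them that were not themselves among the 128 had a median level of -0.32, and of -0.36, -0.29, -0.32 and -0.28 on arrays 1 to 4, against 0.01 for the neighbours of all genes. A level under -1 was found in 35.7% of them, against 23.8% of the neighbours of all genes, and a level over 1 in 24.9% against 26.0%. For the 119 genes not well above background, 202 neighbours had a median of -0.55, with 36.1% under -1. For the 54 with unusual DNA signal, 58 neighbours had a median of -1.52, with 72.4% under -1, so low neighbours were not particular to the 128. Beside the 20 low but detected genes near an end the 29 neighbours had a median of -2.56, with 23 under -1 (79.3%) and 13 at or under -2.8. Beside the 108 elsewhere the 212 neighbours had a median of -0.09, with 63 under -1 (29.7%) and 14 at or under -2.8.

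The 20 genes near an end had a median level of -3.45, against -3.33 for the 108 elsewhere, and a median SD over arrays of 0.13 against 0.14. Their DNA signal had a median of 0.21 against 0.03. The T content was 29.3% against 28.5%, and near-duplicate probes were found in 4 of 20 against 28 of 105. The raised T content and the frequent probe overlap of the 128 were thus present in the genes away from the ends too. Among large contigs, the share of low but detected genes lay between 1.20% on contig 0 (1 of 83) and 3.27% on contig 23 (26 of 796).

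Some low but detected genes cannot be measured fully apart from another gene. Of the 128, 6 shared a probe of identical sequence with a different identifier, among 76 such genes in all. Kwal_23.6586 shared 1 probe with Kwal_48.19387, also among the 128 (-3.73). Both probes of Kwal_23.6592 were shared with Kwal_48.19391, which had a level of -4.48 and a DNA signal of 1.28. The next gene along, Kwal_23.6598, shared both probes with others, Kwal_41.16468 (-3.16, among the 128) and Kwal_43.16494 (-2.78). Hence 3 of the 4 genes of the longest run have a probe in common with a gene of another contig number, and the DNA signals of these 3, at 0.67, 0.86 and 0.49, lay in the upper part of the window. Kwal_26.9632 shared 1 probe with Kwal_26.9623 (-3.46), both at the high-numbered end of contig 26. Kwal_23.6592 and Kwal_23.6598, with both probes shared, give a level joint with other identifiers. The rest of the 6 also have a probe that is not shared in identical form. In Kwal_41.16468 and Kwal_26.9632, however, that probe has 54 and 52 bases in common with the shared one, so it is no separate measurement. In Kwal_23.6586 and Kwal_48.19387 the 2 probes have 20 and 0 bases in common. Without the 6 genes 16 of the 20 near contig ends remain.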

How the data were processed

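Per the file headers, the authors ran Agilent Feature Extraction 10.1.1.1 on the scans of the 4 arrays. Each deposited file lists the median and mean pixel intensity of a spot in both channels with the intensity of its local background. The deposited log10 ratio (red against green) was background-corrected and dye-normalized by that software and was used, with its sign turned, as an alternative only. The files further list flags for outlier spots and for signal well above background, a score of 0 or 1 by the same software. The authors' gene table was not used here. No genome build or table of gene names was used here.

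Levels were computed as in the study's methods: median minus local background signal, log2 of Cy3 over Cy5, and the median over probes. Probes marked as outliers on any array (254) were dropped, and each array was centred on its median gene. The intensities carry no counts, so the 4 arrays limit the precision. The 128 genes, the comparison lists and the tests were chosen with earlier results of these data known, and the level, the detection call and the genomic DNA signal used to choose them were given without a test. Named genes were the 6 lowest, the 3 just inside and the 3 just outside the limit, the 4 with the smallest and the 4 with the largest SD, the 4 with the widest probe difference, the extremes of RNA signal and the first 6 in runs. Others, named for a shared probe or a place near a contig end, and Kwal_27.12467, were chosen after their values were seen.

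The difference between 2 probes was tested with limma 3.58.1 (R 4.3.3; treat, bound of 1 log2 unit, adjusted p under 0.05), after a test on simulated data. All else used Python 3.11.15. Alternatives were quantile normalization, which the methods name, other treatment of outlier spots, negative controls or normexp (offset 50) as background, mean signals, the scanner's ratios, other limits and leaving out each array.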

Additional observations from a re-analysis of the deposited data

Results flagged for a closer look

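The level of Kwal_27.10104 was -2.97 on array 1, against -2.74, -2.74 and -2.75 on arrays 2 to 4. Array 1 stood apart by 0.930 of the whole range, above Dixon's 95% critical value for 4 samples. No other of the 31 measures set against this value exceeded it, and over all 128 genes 7 exceeded the value. Chance alone gives about 1 in 20. The gene lies just inside the limit and was above -2.8 on the other 3 arrays.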

How the results depend on the processing

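The number of low but detected genes depended on the processing of the signals and on the limits. It was 56 with normexp background, all of them among the 128, and 5 with the scanner's own log ratios, in which the same 128 genes had a median level of -1.69. It was 68 with a genomic DNA window of 0.5, 227 with no detection requirement and 12 with RNA above the highest negative control. Leaving out 1 array each gave 127 to 172 genes, most without array 3, and 167 were found with negative controls subtracted. The median level stayed between -3.43 and -3.30 when an array was left out and moved to -3.51 with negative controls subtracted (-3.71 for the same 128 genes), -3.20 with normexp and -2.92 with scanner ratios. The median SD moved to 0.18, 0.12 and 0.066 under those 3 settings, and was 0.13 to 0.14 without 1 array. For genes adjacent to the low but detected ones, the median level was -0.35 to -0.23 without 1 array, -0.26 with negative controls, -0.52 with scanner ratios, -0.22 up to 2 genes away and -0.087 beside those not near a contig end. The number within 10 genes of a contig end was 7 of 56 with normexp and 1 of 5 with scanner ratios. It was 20 to 23 without 1 array, 20 with contig 0 left out, and 12 within 5 genes. Near-duplicate probes made up 16.7% with normexp and 60% with scanner ratios, and T content was 32.9% with scanner ratios (5 genes) and 27.8% for probes sharing under 5 bases. Low but detected genes with probes that differed numbered 63 of 125 in the test against 0 (50.4%, against 54.1% of all genes tested). They numbered 6 against 1.5-fold (4.8% against 6.07%) and 17 with loess (13.6% against 16.3%, with 1 of the 2 main calls kept). Scanner ratios gave 3 (2.4% against 4.86%, again with 1 kept), and probes sharing under 5 bases gave 1 of 63 (1.59% against 1.8%). Without any 1 array there were 2 (1.57% to 1.6%, against 0.922% to 1.09%). The cause was not tested. Median probe GC stayed at 43.6% throughout. With quantile normalization, mean signals or other treatment of outlier spots, the number of low but detected genes stayed at 128. Their median level was then -3.36 to -3.34 and their T content 28.5% to 28.7%, and 20 of them lay within 10 genes of a contig end. Of 300 alternative levels of the 25 named genes, 84 moved by more than the SD of the gene, among them all 25 with scanner ratios. No paired analysis was possible because there is only 1 group. Signals a few times over the negative controls limit the levels: the order of genes within the 128 depends on the background subtracted.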
